A study of Mus musculus with 16 samples.

Results

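The genes described here encode feedback regulators of the ERK signalling pathway and a pair of its target transcription factors: the phosphatases Dusp4, Dusp5 and Dusp6, the Sprouty proteins Spry1, Spry2 and Spry4, the SPRED proteins Spred1 and Spred2, and the ETS factors Etv4 and Etv5. They were chosen by symbol, and every probe set that named 1 of these symbols and no other gene was taken. This gave 10 genes, of 18193 genes with such a probe set on the array, and 28 probe sets, of 34945. All 10 entered the test, among 11451 genes tested. The genes were listed with earlier results of these data known, so their values and adjusted p-values describe where they lay in a fit of the whole table and are no independent evidence.

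RNA was measured in mouse embryonic fibroblasts (MEF), connective tissue cells grown from embryos, on 16 Affymetrix 3' expression arrays. The 4 groups, of 4 arrays each, were wild-type (WT) cells without treatment, WT cells given 1 µM MG132 for 8 hours, CHOP-/- cells without treatment, and CHOP-/- cells given 1 µM MG132 for 8 hours. CHOP, encoded by Ddit3, is a transcription factor of the stress response, and MG132 blocks the proteasome. The untreated groups carry labels of no treatment, whereas their sample descriptions name DMSO, the solvent, so any effect of the solvent cannot be told apart from that of MG132 if they received none. All groups were grown in medium with serum. The labels give a plate of cells for each array but no strain, embryo or isolation, so the p-values cover only variation among plates, and each genotype may be 1 isolation of cells.

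ERK is the last kinase of a relay that runs from growth factor receptors through RAS, RAF and MEK. Active ERK switches on genes whose products restrain the same relay. DUSP phosphatases remove phosphate from ERK and related kinases, with DUSP6 in the cytoplasm and DUSP4 and DUSP5 in the nucleus. Sprouty proteins act between the receptors and RAF, and SPRED proteins bring the RAS inhibitor neurofibromin to the membrane. ETV4 and ETV5 belong to the PEA3 group of ETS transcription factors and are common readouts of fibroblast growth factor signalling. Transcripts of these genes are widely used as a readout of ERK activity in fibroblasts. ERK phosphorylation itself was not measured here.

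The bases upstream of the start sites of 3 members are shown, picked by their calls under MG132. Dusp6 and Spry2 fell in both genotypes, while Dusp5 did not pass the threshold in either. After median centring Dusp6 lost its WT call and Dusp5 passed in CHOP-/- cells. Any link between these bases and the responses was not tested. The sequences come from RefSeq (GRCm38.p6) and run 5′ to 3′ on the strand of the gene over the 250 bases before the start, at chr10:99262981-99263230 (plus strand) for Dusp6, chr14:105896820-105897069 (minus strand) for Spry2 and chr19:53528895-53529144 (plus strand) for Dusp5. Capitals mark a match to any of the motifs searched.
Dusp6: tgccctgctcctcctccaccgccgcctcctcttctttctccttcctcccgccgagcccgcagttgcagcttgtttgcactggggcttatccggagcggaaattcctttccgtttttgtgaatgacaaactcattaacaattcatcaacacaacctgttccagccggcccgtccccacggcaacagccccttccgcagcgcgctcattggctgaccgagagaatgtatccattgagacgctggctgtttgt
Spry2: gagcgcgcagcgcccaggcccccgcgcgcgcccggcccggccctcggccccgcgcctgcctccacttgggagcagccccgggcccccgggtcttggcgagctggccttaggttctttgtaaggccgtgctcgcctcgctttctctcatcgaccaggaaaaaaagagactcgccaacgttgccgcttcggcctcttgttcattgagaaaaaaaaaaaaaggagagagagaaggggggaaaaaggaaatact
Dusp5: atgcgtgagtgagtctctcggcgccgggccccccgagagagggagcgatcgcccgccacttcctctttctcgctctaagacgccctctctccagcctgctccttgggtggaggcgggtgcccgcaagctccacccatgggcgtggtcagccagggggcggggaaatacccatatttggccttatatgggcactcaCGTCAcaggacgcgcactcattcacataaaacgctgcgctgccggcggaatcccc

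RefSeq windows were matched for 7 of the 10 members, not for Dusp4, Spry4 or Etv4. On both strands of these windows, 5 motifs were searched: an ETS site (CCGGAAG), the core of a cyclic AMP response element (TGACG), an AP-1 site (TGACTCA), a C/EBP-ATF site (TTGCATC) and a TATA box (TATAAA). The letters TGACG occurred on the opposite strand 55 bases before the start of Dusp5 and 51 bases before that of Spred2, and no other match was found in the members. Of all 32851 windows, 17.77% held TGACG, 6.91% the ETS letters, 4.46% the AP-1 letters, 2.19% the C/EBP-ATF letters and 12.37% the TATA letters. The members' windows held 56.0% to 71.2% G and C, against a median of 52.4% over all windows. Of all windows, 38.7% were at or above the lowest share among the members. The members' windows held 12 to 31 CpG pairs, where the median window held 6.

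The knocked-out gene, Ddit3, had a signal of 1017 ± 101 (SD, n = 4) in untreated and 7724 ± 587 in MG132-treated WT cells, against 367.6 ± 24 and 396.1 ± 38.9 in the CHOP-/- cells on the probe set used. Its other probe set, 1443897_at, averaged 257.7, 285.8, 256.2 and 290.2 in the same order and showed neither difference. The labels do not say where these probe sets lie relative to the deletion. Arrays of a group correlated at 0.985 to 0.992 across genes. Of 14 fibroblast markers, 12 or 13 lay above the median of their array on all 4 arrays of a group. Lum was not above it on any array, and Pdgfra averaged 2351 and 2510 in WT groups against 118 and 143 in CHOP-/- groups. Other fibroblast markers were higher in CHOP-/- cells: untreated and treated means were 227.5 and 273.9 in WT against 2727 and 2074 for Thy1, 520.8 and 651.1 against 5538 and 6216 for Postn, and 38.48 and 65.33 against 1075 and 734.4 for Dcn. Summed fibroblast markers ranged over 158900 to 185500 and 138700 to 153500 in untreated and treated WT cells, and over 160900 to 176200 and 121000 to 127000 in CHOP-/- cells. The macrophage and leukocyte sum was 791.3 to 906.2 and 844.1 to 1104 in WT cells and 1480 to 1735 and 2225 to 2449 in CHOP-/- cells. Between genotypes Cd14 took most of that difference, at means of 310.5, 264, 1054 and 1736. In WT cells with MG132, Cd14 did not go up with the sum, while Cd68 (135.2 to 216.7) and Csf1r (229.9 to 320.8) rose. Ptprc, Itgam, Lyz2 and Tyrobp were above the array median on 0 arrays. The epithelial sum was 410.5 to 650.4 and 586.1 to 942.5 in WT cells and 414.6 to 660.5 and 788.4 to 996 in CHOP-/- cells. The endothelial sum was 205.5 to 307.1 and 225.8 to 347.4 in WT cells and 191.8 to 302.5 and 340 to 474.9 in CHOP-/- cells. Both sums were thus higher with MG132 in CHOP-/- cells without overlap, with Grhl2 (96.72 to 265.3) and Kdr (43.9 to 181.1) among their markers, while Cdh1, Pecam1 and Cdh5 were above the array median on 0 arrays. The part of these differences between the cells in the results below was not tested. In bulk RNA, fewer cells of a type and less RNA per cell cannot be told apart.

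Most of these feedback genes were lower with MG132 in both genotypes. In WT cells 7 of the 10 fell and 1, Dusp4, rose, where 36.9% and 27.2% of all tested genes fell and rose (64.1% in all). CHOP-/- cells had 8 that fell and Dusp4 that rose, where 36.8% and 25.7% of all tested genes did so (62.5% in all). Treated and untreated arrays of WT cells did not overlap for 7 members, 6 lower and 1 higher, as for 56.6% of all tested genes (33.3% lower and 23.3% higher). Those of CHOP-/- cells did not overlap for 9 members, 8 lower and 1 higher, as for 58.4% of all tested genes (34.2% and 24.1%). The median change of the 10 was -0.61 on the log2 scale in WT cells and -1.37 in CHOP-/- cells, against -0.07 in each for all tested genes. The genes that fell in both genotypes were Dusp6, Spry2, Spry4, Spred1, Spred2, Etv4 and Etv5, that is 7 of 10, and 27.8% of all tested genes fell in both. Dusp4 rose in both, as did 18.7% of all tested genes. All calls are from limma, at a Benjamini-Hochberg adjusted p under 0.05 over all tested genes, and every change is a difference of log2(signal + 16). The scale matters for small changes: centring each array on its median raised all MG132 changes by 0.20 in WT and 0.14 in CHOP-/- cells. The share of called genes that were higher then went from 42.4% to 61.6% in WT and from 41.2% to 55.8% in CHOP-/- cells, and 5 members rather than 7 fell in WT cells.

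**Figure D1:**
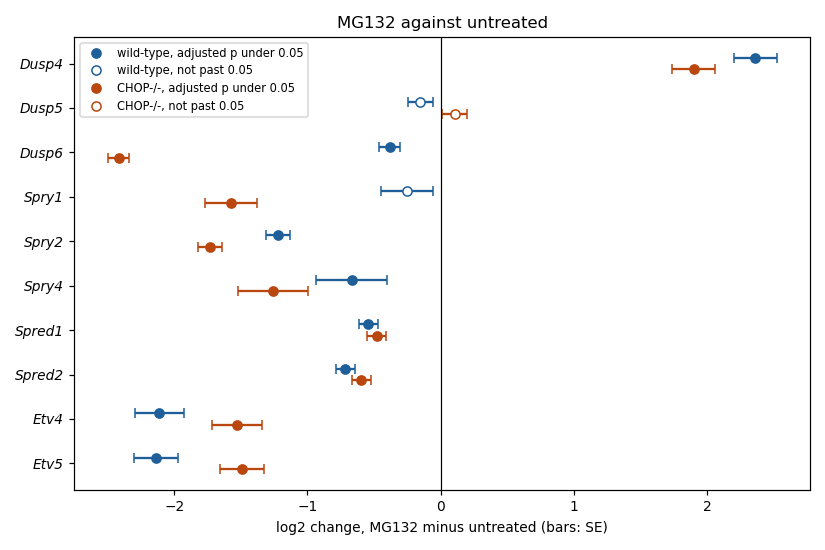
Log2 change with MG132 of the 10 genes in wild-type and CHOP-/- cells, from log2(signal + 16). Points are fitted changes from 4 arrays a group, bars their SE, and open points did not pass the threshold. Dusp4 lies above 0 in both genotypes, at 2.36 and 1.90, and the Etv4 and Etv5 points lie near -2 in wild-type cells.

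The ERK phosphatases went separate ways. Dusp4, which encodes a nuclear phosphatase of ERK, JNK and p38, gave signals of 23.02, 31.74, 40.05 and 12.38 in untreated WT cells and 210.4, 208.2, 169.3 and 204.5 with MG132. The 4 arrays of CHOP-/- cells gave 463.8, 496.9, 427.8 and 523.3 without and 1820, 1885, 1812 and 1773 with MG132. The 4 groups did not overlap, in the order untreated WT, treated WT, untreated CHOP-/-, treated CHOP-/-. The change with MG132 was 2.36 (SE 0.16, limma adjusted p = 7.46e-11) in WT and 1.90 (SE 0.16, 2.32e-09) in CHOP-/- cells. No untreated WT array exceeded its array median for Dusp4, which entered the test through its other groups, and the files hold no detection calls. Sizes against that group therefore depend on the constant added to the signal: the WT change was 2.95 with 1 added and 1.54 with 64 added.

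Dusp6, which encodes the cytoplasmic phosphatase selective for ERK, fell in both genotypes, to a different extent. Its signals in WT cells were 963.5, 897.1, 988.1 and 1078 without and 774.9, 801.2, 667.1 and 755.1 with MG132. Without CHOP they were 1726, 1736, 1889 and 1903 before and 354.8, 311.1, 337.1 and 303.7 after MG132. Every array of a group lay apart from those of the other groups, with untreated CHOP-/- cells highest and treated CHOP-/- cells lowest. The change was -0.38 (SE 0.08, limma adjusted p = 0.000308) in WT and -2.42 (SE 0.08, 1.67e-15) in CHOP-/- cells. The WT change was -0.18 (adjusted p = 0.0622) after median centring, which ends that call, while the CHOP-/- change kept its call under all alternatives run.

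Dusp5, which encodes a nuclear phosphatase specific for ERK, did not pass the threshold in any comparison under the settings used here throughout. Its signals ran over 1119, 1405, 1179 and 1288 in untreated and 1021, 1120, 1254 and 1086 in treated WT cells. Without CHOP they ran over 1011, 1344, 1156 and 1349 without and 1311, 1433, 1187 and 1274 with MG132. All 4 groups overlapped. The changes with MG132 were -0.15 (SE 0.10, limma adjusted p = 0.173) in WT and 0.10 (SE 0.10, 0.356) in CHOP-/- cells. After median centring the latter was 0.25 (adjusted p = 0.0274), past the threshold.

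**Figure D2:**
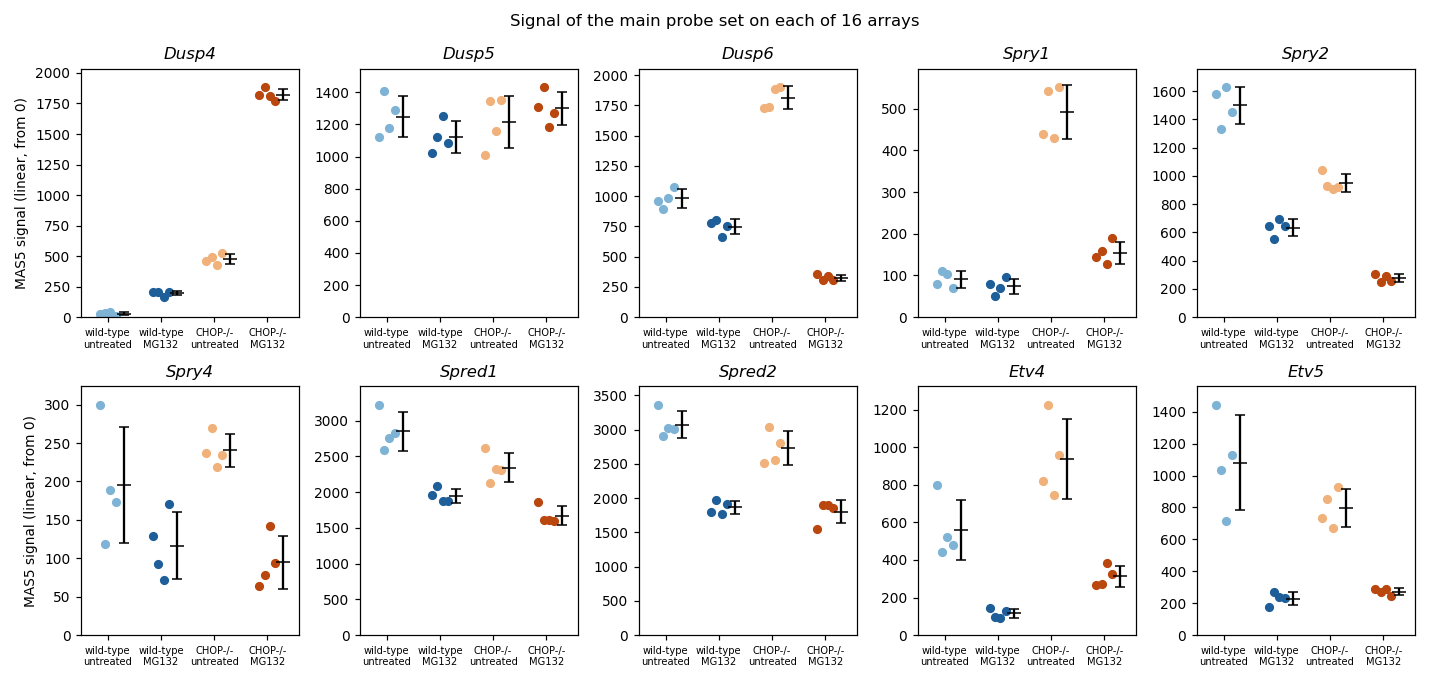
MAS5 signal of the probe set used for each of the 10 genes on each of 16 arrays, on linear axes from 0 that differ between panels. Points are arrays, and bars give the mean ± SD of 4 arrays. The Dusp4 groups rise from 26.8 in untreated wild-type to 1822 in treated CHOP-/- cells, whereas the 4 Dusp5 groups overlap.

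All 3 Sprouty genes fell in CHOP-/- cells, and Spry2 and Spry4 fell in WT cells too. Spry2, whose product restrains receptor signalling to RAS, had signals of 1579, 1333, 1629 and 1454 in untreated and 647.7, 551.3, 693.3 and 642.2 in treated WT cells. Without CHOP they were 1043, 930.6, 906.2 and 920.1 without and 306.4, 251.6, 289.5 and 254.6 with MG132. No groups overlapped, and the changes were -1.22 (SE 0.09, limma adjusted p = 3.79e-10) in WT and -1.73 (SE 0.09, 2.33e-12) in CHOP-/- cells.

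Spry1, the Sprouty gene best known from kidney development, was low in WT cells, at 78.79, 110.7, 103.1 and 69.12 without and 78.84, 50.94, 69.62 and 95.38 with MG132. These groups overlapped, and the change of -0.25 (SE 0.19, limma adjusted p = 0.265) did not pass. The signals of CHOP-/- cells were 439.6, 543, 430.2 and 551.7 without and 143.2, 159.7, 127 and 189.2 with MG132, 2 groups that did not overlap. The change there was -1.57 (SE 0.19, 5.09e-07). Only 2 of 4 untreated and 0 of 4 treated WT arrays exceeded the array median for Spry1, so its WT values lay near or below the middle of the array.

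Spry4, which acts upstream of RAF, was also a low signal. It read 299.7, 118.5, 189.5 and 173.3 in untreated and 128.7, 93.06, 71.72 and 171.1 in treated WT cells, with overlap between both. It read 237.4, 269.7, 219.4 and 235.1 in untreated and 63.58, 78.24, 141.9 and 94.4 in treated CHOP-/- cells, with none. The CHOP-/- change was -1.26 (SE 0.26, limma adjusted p = 0.000331). The WT change of -0.67 (SE 0.26, adjusted p = 0.0329) rested on single arrays. It was -0.45 (adjusted p = 0.145) without untreated replicate 1 and -0.66 (0.0571) without untreated replicate 3. It was -0.60 (0.0821) and -0.49 (0.124) without MG132 replicates 2 and 3. It also missed the threshold after median centring, at -0.47 (adjusted p = 0.119).

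Both SPRED genes fell by similar amounts in the 2 genotypes. Spred1, the SPRED gene mutated in the human RASopathy Legius syndrome, had signals of 3222, 2593, 2753 and 2831 in untreated and 1955, 2087, 1871 and 1878 in treated WT cells. Without CHOP it had 2617, 2127, 2324 and 2306 without and 1865, 1617, 1614 and 1595 with MG132. Treated and untreated arrays did not overlap in either genotype, with changes of -0.54 (SE 0.07, limma adjusted p = 1.97e-06) and -0.48 (SE 0.07, 9.89e-06). Spred2, its paralogue, read 3360, 2908, 3020 and 3003 in untreated and 1804, 1975, 1763 and 1915 in treated WT cells. It read 2507, 3039, 2562 and 2804 without and 1555, 1901, 1893 and 1854 with MG132 in CHOP-/- cells. Here too treatment separated all arrays within a genotype, with changes of -0.72 (SE 0.07, limma adjusted p = 3.85e-08) in WT and -0.60 (SE 0.07, 5.85e-07) in CHOP-/- cells.

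The ETS factor genes had the lowest fitted changes of the 10 in WT cells on the probe sets used. Their other probe sets, described below, gave smaller changes there. Etv4 read 797, 443.4, 519.5 and 480.4 in untreated and 141.8, 96.8, 93.17 and 130.7 in treated WT cells. It read 820.2, 1225, 745.7 and 960.4 in untreated and 265.7, 272.8, 385.3 and 325.5 in treated CHOP-/- cells. The treated groups lay below the untreated groups of both genotypes, with changes of -2.11 (SE 0.19, limma adjusted p = 3.7e-09) in WT and -1.53 (SE 0.19, 4.46e-07) in CHOP-/- cells. Treated WT signals of Etv4 lay near the array median, so the WT change depends on the added constant. It was -2.251 with 1 added and -1.775 with 64 added. Etv5 read 1443, 1034, 716.8 and 1131 in untreated and 175.4, 271.9, 236 and 230.7 in treated WT cells. It read 731, 855.1, 671.3 and 929.2 in untreated and 286.1, 267.3, 289.5 and 244.2 in treated CHOP-/- cells. Its changes were -2.14 (SE 0.16, limma adjusted p = 5.29e-10) and -1.49 (SE 0.16, 1.28e-07), again without overlap between treated and untreated arrays.

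The difference between the 2 MG132 responses, CHOP-/- minus WT, asks which members responded differently between the genotypes. As each genotype may be 1 isolation, loss of CHOP and other differences between the cells cannot be told apart here. The difference passed for 4 of the 10, where 28.3% of all tested genes passed. Dusp6, Spry1 and Spry2 had a lower response in CHOP-/- cells, as did 14.1% of tested genes, and Etv5 fell less, where 14.2% had a higher one. Dusp6 and Spry2 fell in both genotypes. Spry1 did not pass in WT cells, where its signals lay near or below the array median already without MG132. The difference was -2.04 (SE 0.11, limma adjusted p = 1.73e-10) for Dusp6, -1.32 (SE 0.27, 0.00107) for Spry1 and -0.51 (SE 0.13, 0.00578) for Spry2. For Etv5 it was 0.65 (SE 0.23, 0.0428), and it missed the threshold in 11 of the 16 fits that left out 1 array, with values of 0.50 to 0.83. It also missed it with no filter (0.0721) or no variance trend (0.0703), and with all probe sets averaged it was 0.21 (0.439). The other Etv5 probe sets gave differences of -0.17 and 0.15. Median centring took the share of called differences that were higher from 50.1% to 38.6% over all genes and changed no member's call here.

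The other 6 differences did not pass. They were -0.46 (SE 0.23, limma adjusted p = 0.137) for Dusp4, 0.26 (0.17) for Dusp5, -0.59 (SE 0.37, 0.262) for Spry4, 0.06 (0.717) for Spred1, 0.12 (0.429) for Spred2 and 0.58 (SE 0.26, 0.106) for Etv4, with adjusted p-values in the brackets. The Dusp4 value turned with the added constant, from -1.02 (adjusted p = 0.0237) with 1 to 0.27 (0.186) with 64. It was -0.61 (0.0294) without untreated WT replicate 3. The Etv4 value was 0.72 (0.0456) without untreated CHOP-/- replicate 2.

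Without MG132 the genotypes already differed in several members, as they did in 55.6% of all tested genes. Dusp4, Dusp6, Spry1 and Etv4 were higher in CHOP-/- cells, 4 of 10, where 28.6% of all tested genes were higher. Spry2, Spred1 and Etv5 were lower, 3 of 10, where 26.9% were lower (55.6% in all). The differences, CHOP-/- minus WT, were 3.57 (SE 0.16, limma adjusted p = 1.28e-13) for Dusp4, 2.26 (3.46e-09) for Spry1, 0.88 (1.07e-08) for Dusp6 and 0.74 (0.00198) for Etv4. They were -0.65 (5.01e-06) for Spry2, -0.28 (0.00306) for Spred1 and -0.40 (0.0447) for Etv5. The arrays of both genotypes did not overlap for 4 members, Dusp4, Dusp6 and Spry1 (higher) and Spry2 (lower), as for 49.8% of all tested genes (25.4% higher and 24.3% lower). They overlapped for Etv4, Spred1 and Etv5, and the Etv5 call was lost in 10 of the 16 fits that left out 1 array, with values of -0.58 to -0.25. Dusp5 (-0.04), Spry4 (0.34) and Spred2 (-0.17) did not pass. With all probe sets averaged, the Etv4 difference was 0.17 (adjusted p = 0.416), the Spred1 difference -0.22 (0.114) and the Etv5 difference -0.07 (0.686), none of them past the threshold, while Spry4 (0.65, 0.0138) and Spred2 (-0.35, 0.0445) passed.

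With MG132 the order of the genotypes changed for Dusp6. Its mean signal was 981.7 ± 74.8 in untreated WT and 1813 ± 95.3 in untreated CHOP-/- cells (SD, n = 4), and 749.6 ± 58.1 against 326.7 ± 23.6 after MG132. The difference thus went from 0.88 to -1.16 (SE 0.08, limma adjusted p = 1.4e-10). Among treated cells Dusp4 (3.11, 1.21e-12), Etv4 (1.32, 3.6e-06) and Spry1 (0.94, 0.000282) were higher in CHOP-/- cells, 3 of 10, where 30.7% of tested genes were higher. Dusp6, Spry2 (-1.16, 1.21e-09) and Spred1 (-0.22, 0.0152) were lower, 3 of 10, where 28.1% were lower (58.8% in all). The treated arrays of both genotypes did not overlap for these 6 members, as for 53.4% of all tested genes (27.9% higher and 25.5% lower). The Etv4 value was 1.433 with 1 added to the signal and 1.066 with 64 added. The Spred1 value was -0.19 (0.0544) without treated WT replicate 2, past the threshold no longer. Dusp5 (0.21, 0.0609), Etv5 (0.25, 0.209), Spry4 (-0.25, 0.447) and Spred2 (-0.05, 0.564) did not pass. After quantile normalization Etv5 (0.38, 0.0424) and Dusp5 (0.24, 0.0346) passed, and Dusp5 also did after median centring (0.23, 0.0468) and with only the groups compared in the fit (0.0323). With all probe sets averaged Spred2 was lower (-0.64, 0.000682), and Spred1 did not pass (-0.12, 0.388). The shares of members called in either comparison of the genotypes were near those of all genes. The comparisons share arrays with the MG132 responses, so they are not separate evidence.

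**Figure D3:**
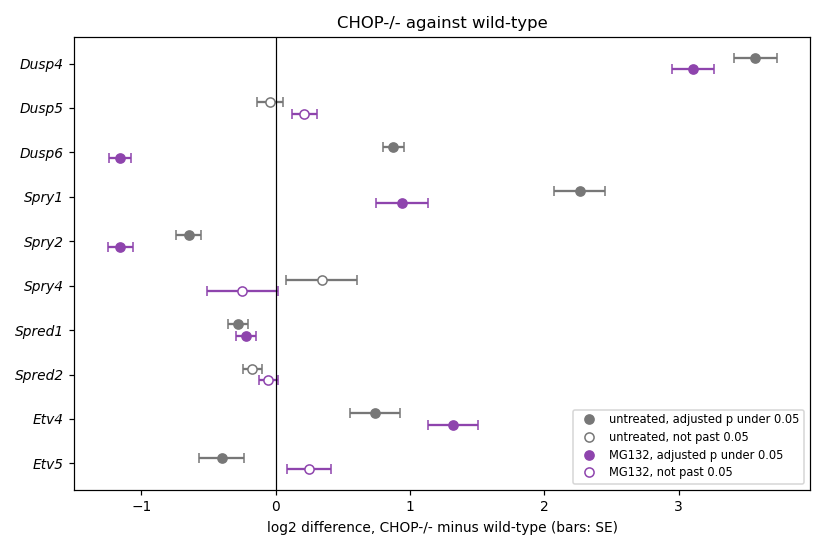
Log2 difference between CHOP-/- and wild-type cells of the 10 genes, without and with MG132, from 4 arrays a group. Bars are SE, and open points did not pass the threshold. Dusp6 goes from 0.88 without to -1.16 with MG132, and Dusp4 lies at 3.57 and 3.11.

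Other probe sets of the same genes agreed in part. Dusp4, Dusp5, Dusp6 and Spry1 have 1 single-gene probe set each, so their values have no second reading on the array. Spry2 and Etv4 have 2, Etv5 3, Spry4 4, Spred2 5 and Spred1 8, and up to 3 of those of Spred1 were designed on a common source sequence. In a fit of all single-gene probe sets, 14 of the 28 passed the threshold in WT cells, 1 higher and 13 lower, where 36.0% of all probe sets passed. In CHOP-/- cells 16 passed, 1 higher and 15 lower, where 34.2% of all passed. The difference between responses passed for 3 of the 28, where 13.4% of all passed. Untreated genotypes differed for 7, where 30.5% of all passed, and treated genotypes for 8, where 33.6% passed. The counts for the difference and for the genotypes were near the shares of all probe sets, and probe sets of 1 gene are not separate readings.

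For Etv5 all 3 probe sets fell in both genotypes. The change was -0.89 in WT and -1.06 in CHOP-/- cells for 1420998_at and -1.05 and -0.90 for 1450082_s_at, which share a source sequence, beside -2.14 and -1.49 for 1428142_at. For Spry4, 1445669_at fell too, with changes of -0.74 (limma adjusted p = 0.018) in WT and -1.20 (0.000358) in CHOP-/- cells. In this fit 1440867_at passed in CHOP-/- cells but not in WT cells (0.066). The other 2, 1422021_at (-0.23 and -0.74) and 1422020_at (0.54 and -0.97), passed in neither. For Spred1, 4 of the 8 probe sets fell in both genotypes, with changes of -0.69 to -0.52 in WT and -0.60 to -0.43 in CHOP-/- cells, and the other 4 passed in neither. For Spred2, 1436892_at fell with 1434403_at, with changes of -0.39 (0.0119) and -0.50 (0.00193). The other 3 passed in neither genotype, at 0.11 and -0.58 for 1441415_at, -0.09 and -1.02 for 1441802_at and -0.20 and -0.08 for 1423001_at. The second probe sets of Spry2 (1421656_at, 39 to 88 units) and Etv4 (1443381_at) were low and gave no call. Averaging all probe sets of a gene ended several calls: the WT change of Spred2 was then -0.26 (adjusted p = 0.121), and the Spry2 difference between responses -0.40 (0.416).

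**Figure D4:**
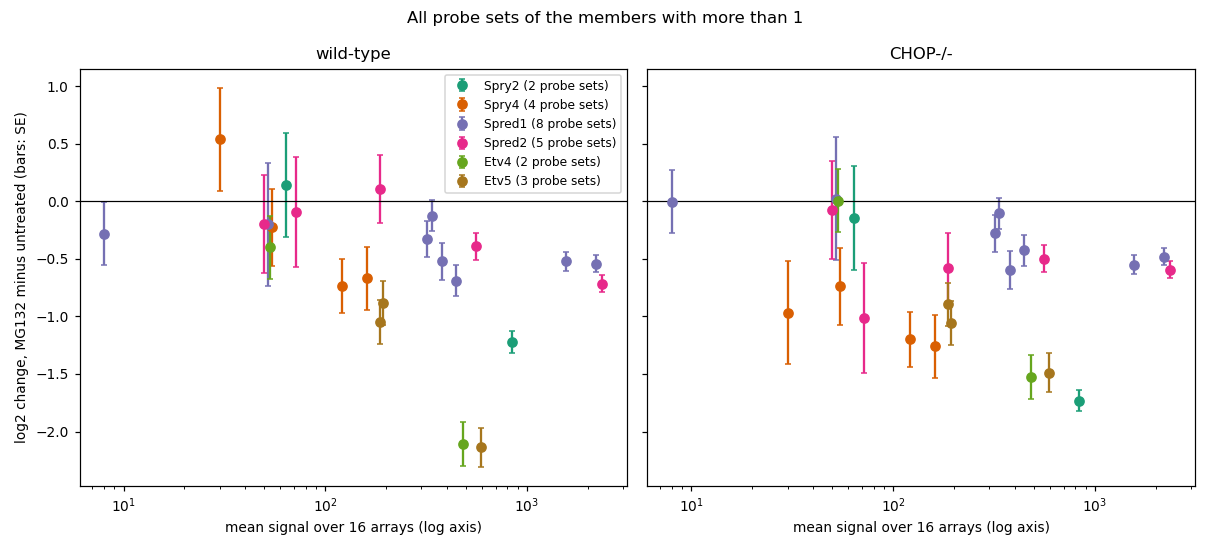
Log2 change with MG132 of every single-gene probe set of the 6 genes that have more than 1, in wild-type and CHOP-/- cells, against its mean signal over 16 arrays on a log axis. Bars are SE. The 3 Etv5 probe sets all lie below 0, while probe sets of Spry2 and Etv4 under 100 units lie nearer to 0 than the bright ones.

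Across the 16 arrays the members' log2 values moved together in part, over arrays that carry the group differences above. Pearson's r was 0.949 for Spred2 with Etv5, 0.933 for Spry2 with Spred1 and 0.818 for Etv4 with Etv5. Dusp4 ran against Spry2 (r = -0.868) and Spred1 (-0.811). Dusp5 correlated with no other member beyond an r of -0.311. These values come from 16 arrays in 4 groups and carry no test. The genes outside the list whose values ran closest to Dusp6 were Nrp1 (r = 0.971), Cnot6 (0.970) and Dtwd1 (0.968). The closest to each other member were Laptm4b for Dusp4 (0.989), Aacs for Dusp5 (0.765), Gas2 for Spry1 (0.971), Thbs1 for Spry2 (0.995), Rnf214 for Spry4 (0.909), Smim15 for Spred1 (0.977), Mprip for Spred2 (0.988), Cand2 for Etv4 (0.982) and Atp8b2 for Etv5 (0.983).

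The other genes of the pathway were counted by role, beside 27.2% of all tested genes that rose and 36.9% that fell in WT cells and 25.7% and 36.8% in CHOP-/- cells. Median centring took the median of all tested genes to 0.13 and 0.07. Of 13 growth factor ligands tested (16 listed), 2 rose and 3 fell in WT cells and 1 rose and 7 fell in CHOP-/- cells, with medians of -0.09 and -0.52, the former 0.12 after median centring. Fgf7, a fibroblast growth factor for epithelium, changed by -0.22 in WT (-0.02 after median centring, no longer past the threshold) and -1.58 in CHOP-/- cells, and Ereg, an EGF receptor ligand, by -0.54 and -1.37. Nrg1, the ligand of ERBB3, rose by 1.53 and 0.95. Pdgfc, a ligand of PDGF receptor alpha, rose by 0.74 in WT and changed by -0.46 in CHOP-/- cells. The response was lower in CHOP-/- cells for 7 of the 13 and higher for 0, against 14.1% and 14.2% of all tested genes. Most lists described below went the other way. The response was higher for 13 and lower for 3 of 25 other ERK targets, and 4 and 1 of 13 receptor tyrosine kinases. The counts were 3 and 0 of 15 relay genes, 2 and 0 of 8 other phosphatases, and 3 and 5 of 17 other inhibitors.

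Of 13 receptor tyrosine kinases, 1 rose and 5 fell in WT cells, and 4 rose and 6 fell in CHOP-/- cells. The medians were -0.26 and -0.13. They were -0.21 and 0.03 after quantile normalization and -0.05 and 0.02 after median centring. Pdgfrb, a PDGF receptor, changed by -1.43 in WT and -0.98 in CHOP-/- cells, Igf1r, the IGF1 receptor, by -0.93 and -0.70, and Met, the HGF receptor, by -0.82 and -0.94. Axl, the GAS6 receptor, changed by -0.57 and -0.70 on the probe set used, and the WT value was 0.65 when its probe sets were averaged. The 4 that rose in CHOP-/- cells were Fgfr1 (0.90), Egfr (0.73), Fgfr3 (0.59) and Epha2 (0.34), and none of them passed in WT cells. Fgfr2, which encodes an FGF receptor, rose by 1.05 in WT cells and did not pass in CHOP-/- cells (-0.06). Fgfr2 averaged 1124 in untreated WT and 381 in untreated CHOP-/- cells, a difference of -1.52, and Pdgfra differed by -4.19.

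Of 15 genes of the RAS to ERK relay tested, 4 rose and 8 fell in WT and 3 rose and 6 fell in CHOP-/- cells, with medians of -0.30 and -0.05. After median centring 4 rose and 6 fell in WT and 5 rose and 6 fell in CHOP-/- cells, with medians of -0.10 and 0.10. Map2k1, which encodes MEK1, rose by 0.20 and 0.36, while Map2k2, which encodes MEK2, changed by -0.59 and -0.34. The RAS gene Nras changed by -0.74 and -0.75, and Grb2, the adaptor between receptors and RAS, rose by 0.55 and 0.60. The ERK-regulated ETS factors Elk3 (-1.49 and -1.35) and Elk4 (-0.90 and -0.63) fell in both genotypes, though Elk4 stood at 0.026 in CHOP-/- cells with its probe sets averaged.

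Of 8 other MAP kinase phosphatases tested, 5 rose and 1 fell in WT and 4 rose and 1 fell in CHOP-/- cells, with medians of 0.27 and 0.20, and 0.47 and 0.35 after median centring. Dusp1, an immediate early phosphatase of JNK and p38, went from a mean of 10383 to 18824 in WT and from 8544 to 14457 in CHOP-/- cells, changes of 0.86 and 0.76. Dusp10 and Dusp16, which act on JNK and p38, rose by 0.50 and 0.40 in WT and by 0.88 and 0.45 in CHOP-/- cells. Dusp7, a close relative of Dusp6 that acts on ERK, changed by -0.86 and -0.37, the latter -0.23 and not past the threshold after median centring. Dusp9, the third ERK-selective cytoplasmic phosphatase, rose in WT cells by 0.58, from a mean of 81.8 to 126, both near the array median. It did not pass in CHOP-/- cells (-0.03), where the means were 690.4 and 676.5. The untreated genotypes differed by 2.92 for Dusp9.

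Of 17 other inhibitors of the pathway tested, 7 rose and 4 fell in WT and 4 rose and 8 fell in CHOP-/- cells, with medians of 0.04 and -0.16. After median centring 9 rose and 4 fell in WT and 4 rose and 4 fell in CHOP-/- cells, with medians of 0.24 and -0.01. Errfi1, an inhibitor of the EGF receptor, changed by -1.36 and -0.81, and Socs5 by -0.76 and -0.85. Spred3, the third SPRED gene, changed by -0.65 (limma adjusted p = 0.0645) in WT and -0.69 (0.0493) in CHOP-/- cells, where the call was lost under most alternatives. Il17rd, which encodes the FGF antagonist SEF, passed in neither, at 0.04 (0.775) and -0.16 (0.202). Flrt2, a membrane protein that binds FGF receptors, rose by 0.93 in WT and changed by -0.98 in CHOP-/- cells. Spry3 did not enter the test.

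Of 25 other genes known as ERK targets tested, 8 rose and 13 fell in WT and 8 rose and 11 fell in CHOP-/- cells, with medians of -0.62 and -0.20, and -0.41 and -0.06 after median centring. Egr1, an immediate early transcription factor, changed by -4.93 in WT and -3.57 in CHOP-/- cells, and Egr3 by -4.44 and -3.48. The treated Egr3 means, 53.7 and 59.8, lay below the median of the arrays, so its size depends on the added constant: it was -3.73 and -2.83 with 64 added and -4.79 and -3.79 with 1. Ccnd1, the gene of cyclin D1, went from a mean of 13496 to 2813 in WT and from 8436 to 2103 in CHOP-/- cells. Fosl1, which encodes the AP-1 subunit FRA1, rose by 0.24 and 0.44, and Ptgs2, which encodes cyclooxygenase 2, by 2.00 and 1.44.

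**Figure D5:**
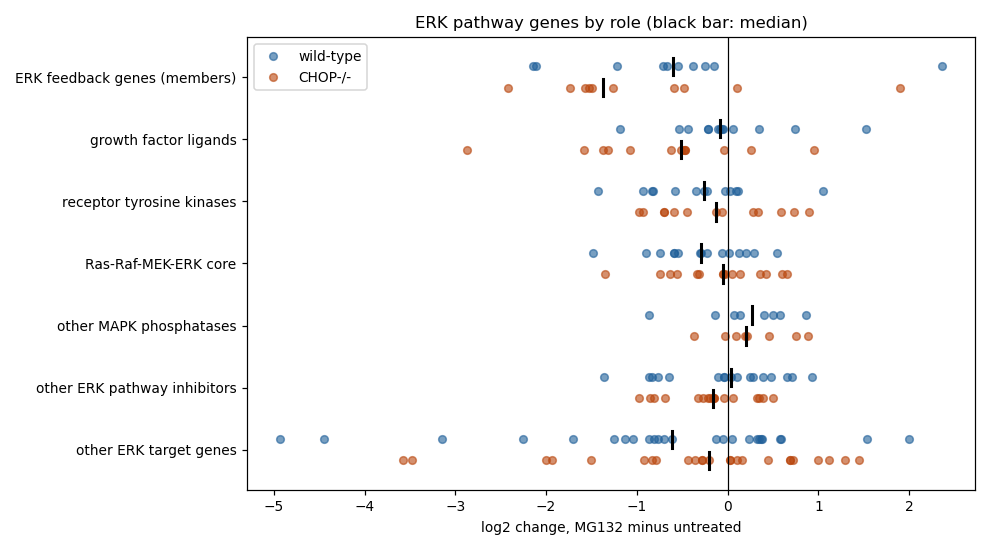
Log2 change with MG132 of the tested genes of each pathway list in wild-type and CHOP-/- cells. Each point is a gene, and the bar marks the list's median, which for the 10 feedback genes is -0.61 in wild-type and -1.37 in CHOP-/- cells, against -0.07 in each for all tested genes.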

How the data were processed

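Per the labels, RNA was hybridised to an Affymetrix mouse 3' array, and per the submitters' processing notes the authors summarised it with MAS5, version not given in the sources used here. Linear signal intensities were deposited by the authors, 1 per probe set and array. Trimmed of 2% at either end, all 16 arrays had a mean of 1000, the mark of a common scaling. Of 45101 probe sets, 64 were controls, 9160 named no gene, 932 named several and 34945 named 1, and 34741 of these matched RefSeq by gene identifier.

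Intensities were used as log2(signal + 16) without normalization between arrays. The brightest single-gene probe set stood for its gene, which was tested when above the array median on at least 4 of 16 arrays (11451 genes). The limma 3.58.1 package (R 4.3.3) fitted 1 coefficient for each of the 4 groups (12 residual and 7.65 prior degrees of freedom, mean-variance trend), two-sided, with Benjamini-Hochberg adjustment over all tested genes and a threshold of 0.05. The script was tested on simulated data. Every member's probe sets are reported. From each pathway list, up to 4 genes with the smallest adjusted p in either MG132 contrast are named, with Dusp1, Il17rd, Errfi1, Spred3, Spry3, Etv1, Egr1, Fosl1, Map2k1 and Map2k2, and some list entries are not reported here. Dusp9, Egfr, Epha2, Fgfr1, Fgfr2, Fgfr3 and Pdgfra were named after their values were seen. Among the list entries with no single-gene probe set were Areg, Frs2, Rps6ka1, Rps6ka2 and Etv1, and Fgf1, Fgf2, Dusp2, Dusp26, Spry3, Fosb and Vgf did not pass the filter. The members and lists were chosen with earlier results of these data known. Alternatives were other constants, scalings, filters, probe set rules, sample sets and variance models, the replicate number as a block, and each array left out. Promoter windows are RefSeq's (GRCm38.p6), cut to the bases before the start.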

Additional observations from a re-analysis of the deposited data

Results flagged for a closer look

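In 10 of 112 groups of 4 arrays over the 28 probe sets, 1 array lay far from the other 3 by Dixon's criterion (a gap above 0.829 of the range), where chance gives about 1 in 20. In treated WT cells these were the lowest values of Dusp4 1428834_at (169.3, next 204.5), Spry4 1445669_at (61.03, next 80.67), Spred1 1460116_s_at (238.3, next 375.2) and Spred1 1443652_x_at (5.469, next 66.04). In untreated CHOP-/- cells these were the lowest values of Spred1 1428777_at (264.2, next 349.4), Spred1 1443652_x_at (7.277, next 50.98) and Spred2 1441802_at (12.02, next 94.99). In treated CHOP-/- cells these were the highest values of Spred1 1423160_at (1865, next 1617) and Etv4 1443381_at (59.93, next 44.5) and the lowest of Spred2 1434403_at (1555, next 1854).

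The response to MG132 differed between the genotypes, by limma's test of the difference itself, for Dusp6 (-2.04), Spry1 (-1.32), Spry2 (-0.51) and Etv5 (0.65). In WT cells the Spry1 signals lay near or below the array median, and its change there did not pass. With all probe sets averaged, the differences of Spry2 (-0.40, adjusted p = 0.416) and Etv5 (0.21, 0.439) did not pass, and that of Etv5 also missed the threshold with no filter (0.0721) and with no variance trend (0.0703).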

How the results depend on the processing

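Of 50 member results, none reversed a call under the alternatives run. With genes required above the median on all 16 arrays, where Dusp4, Spry1, Spry4 and Etv4 are not tested, 5 members passed in WT cells (8 otherwise), 5 in CHOP-/- cells (9) and 3 between treated genotypes (6). With all probe sets averaged, 2 rather than 4 differences between responses passed. Averaging reversed Axl in WT cells (0.65) and between treated genotypes (-0.53), Elk4 in CHOP-/- cells (0.026), Egr3 for the difference (-0.11) and between untreated genotypes (0.00), Elk3 between untreated genotypes (0.37) and Dusp16 between treated genotypes (-0.10). The cause was not tested. Leaving out each array in turn changed the call of 8 of the 50 results. The members called then numbered 7 to 8 in WT and 9 in CHOP-/- cells, 3 to 5 for the difference, 6 to 8 between untreated and 5 to 7 between treated genotypes. The main fit took arrays with the same replicate number as unlinked, and whether they shared a batch was not tested. Their deviations correlated at -0.07 to 0.16 over 24 pairs, 5 of them over 0.1. Of the 16 arrays, 8 correlated best with an array of their own number. With the replicate block, 8 members passed in WT and 9 in CHOP-/- cells, 4 for the difference, 8 between untreated and 7 between treated genotypes. Over all genes the block gave 7454, 7328, 3486, 6520 and 6895 calls. Precision is limited by 4 arrays a group. For Dusp4 it is also limited by signals below the array median in untreated WT cells. For Spry1, Spry4 and Etv4 it is limited by signals near or below that median in some groups.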
